A study of Rattus norvegicus with 18 samples.

Results

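Immediate early genes are the genes that a cell switches on within minutes of a growth factor, stress or injury signal, from regulators already present and before new protein is needed. The 10 genes considered here were Egr1, Egr3, Nr4a1, Fos, Fosb, Fosl1, Junb, Dusp1, Ier2 and Myc, taken by name from the gene column of the authors' list of 5-hydroxymethylcytosine peaks. Of these, 8 were found, with 16 of the list's 215951 peaks, and all 8 were among the 12925 of 32883 genes tested in RNA. Egr3 and Junb were not found under their symbols and have no values here. With vitamin C, the RNA of Egr1 rose 5.77-fold and that of Nr4a1 2.41-fold, Dusp1 and Fosb rose less, and Fos fell. In the peaks of these genes, the 5-hydroxymethylcytosine signal, scaled to reads in peaks, rose in 11 and fell in 4. Of all peaks 73.2% were called, 36.9% higher and 36.3% lower. Of gene peaks centred within 10 kb of a start, as all 16 were, 44.1% were higher and 28.9% lower. Scaled to all counted reads, 12 of the 16 were higher and 2 lower, against 60.1% and 23.6% of all peaks. For gene peaks within 10 kb of a start the shares were then 67.7% and 17.1%.

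The samples were primary rat Schwann cells, the myelinating glia of peripheral nerve, all taken at passage 3 and either left untreated (control) or treated with vitamin C. Not given in the sources used here are the dose, the length of treatment and the strain. Ribosomal RNA was removed and the remaining RNA sequenced in 3 control and 3 treated samples. DNA carrying 5-hydroxymethylcytosine was captured with an antibody and sequenced (hMeDIP) in 3 and 3 samples, and unprecipitated DNA (input) in 3 and 3, which makes 18 libraries. The series asks whether vitamin C acts on genes of myelination through the removal of DNA methylation.

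RNA libraries had 23381814 to 33173282 reads in genes, hMeDIP libraries 24020306 to 39899445 and input libraries 7201638 to 9521037 reads in peaks. Vitamin C replicate 1 stood apart in RNA. Its gene counts differed from those of replicates 2 and 3 by a chi-square per degree of freedom of 29.3 and 41.0, against 5.54 between those 2. Of its counted reads, 53.9% were assigned to no named gene, compared with 43.9% for vitamin C replicate 2, 42.3% for replicate 3 and 45.2% to 50.9% for controls. Peak counts of hMeDIP replicates 1 and 3 differed by less than the sampling noise, both for controls (0.963) and for treated samples (0.896), so each such pair was counted as 1 sample and hMeDIP comparisons have n = 2. All input pairs were also below 1, at 0.978 to 0.988, with no pair apart from the others. The test of input alone kept n = 3. Nothing in the labels says that the samples are separate cultures or animals. The p-values therefore measure only how far these samples spread, and that spread may be technical. The summed level of 11 Schwann cell markers was 12145 to 12425 CPM (counts scaled to the library's total in genes after TMM adjustment) in controls and 11883 to 12630 with vitamin C. Among them Gfap, Mbp, Egr2, Cdh19 and Gas7 rose, S100b (from 1173 ± 42.4 to 589.7 ± 36.4 CPM) and Erbb3 fell, and Sox10 and Ngfr were not called.

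The best known route to these genes runs from receptor tyrosine kinases through RAS, RAF, MEK and ERK to the ternary complex factors that sit with SRF on CArG boxes, and a parallel route runs through CREB on cyclic AMP response elements. Their products are mostly transcription factors, which pass the signal on to later genes, and phosphatases such as the product of Dusp1, which end it. In Schwann cells the Egr family is known for Egr2 (Krox20), which drives myelination, and AP-1 (dimers of Fos and Jun proteins) for the response of the cells to nerve injury. 5-hydroxymethylcytosine is made from 5-methylcytosine by TET enzymes, for which ascorbate is a cofactor.

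RefSeq (build GRCr8) gives a promoter window, from 250 bases before to 50 after the start, for 7 of the genes: Egr1, Nr4a1, Fosb, Fosl1, Junb, Dusp1 and Ier2. The windows of the 4 genes whose RNA rose are printed because response elements of this class were searched for there. They run 5′ to 3′ on the gene's strand, with CArG boxes and the response element core TGACG (read CGTCA on the other strand) in capitals. The Fosb window held no match to any motif searched.
Egr1: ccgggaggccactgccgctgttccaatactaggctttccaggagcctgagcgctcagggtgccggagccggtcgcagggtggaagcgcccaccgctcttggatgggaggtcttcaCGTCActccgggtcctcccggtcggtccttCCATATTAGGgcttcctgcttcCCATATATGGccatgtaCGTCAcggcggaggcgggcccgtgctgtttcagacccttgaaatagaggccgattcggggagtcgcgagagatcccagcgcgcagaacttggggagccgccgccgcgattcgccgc
Nr4a1: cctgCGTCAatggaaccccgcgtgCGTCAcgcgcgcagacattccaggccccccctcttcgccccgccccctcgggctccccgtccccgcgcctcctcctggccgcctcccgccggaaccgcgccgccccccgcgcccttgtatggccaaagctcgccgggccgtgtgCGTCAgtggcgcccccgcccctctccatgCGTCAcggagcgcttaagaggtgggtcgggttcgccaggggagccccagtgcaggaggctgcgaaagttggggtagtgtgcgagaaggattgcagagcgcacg
Dusp1: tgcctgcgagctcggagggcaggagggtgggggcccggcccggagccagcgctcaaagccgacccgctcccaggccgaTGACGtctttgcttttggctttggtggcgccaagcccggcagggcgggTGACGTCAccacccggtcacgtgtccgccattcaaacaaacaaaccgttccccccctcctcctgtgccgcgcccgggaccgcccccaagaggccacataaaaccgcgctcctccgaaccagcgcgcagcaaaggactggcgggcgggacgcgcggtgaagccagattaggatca
Fosb: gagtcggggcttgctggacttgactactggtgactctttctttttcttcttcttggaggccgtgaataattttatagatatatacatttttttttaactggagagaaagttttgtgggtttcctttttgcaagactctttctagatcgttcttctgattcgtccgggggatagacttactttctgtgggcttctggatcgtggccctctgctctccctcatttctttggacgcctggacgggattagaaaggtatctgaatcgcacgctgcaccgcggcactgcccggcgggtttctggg
Egr1 held 2 CArG boxes (CC, 6 bases of A or T, then GG), at -105 to -96 and -83 to -74 from the RefSeq start. Of 33465 rat promoter windows of this length 1.64% held at least 1 such box and 0.0209% held 2 or more. None of the other 6 windows held an exact match, and near matches were not counted. The core TGACG occurred in 6 of the 7 windows, Fosb being the exception, against 21.2% of all windows. Nr4a1 held 4 of these cores. The full cyclic AMP response element TGACGTCA, which contains the core on both strands, was present in Dusp1 from -124 and in Ier2 from -66, against 1.83% of all windows. Nr4a1 also held the Egr site GCGGGGGCG on the reverse strand at -73 to -65 (2.73% of all windows) and Dusp1 the E box CACGTG at -107 to -102 (6.42%). No window held the AP-1 site TGANTCA (7.33% of all windows). The 7 windows had a median of 22 CpG dinucleotides, against 7 over all windows, and a median observed-over-expected CpG ratio of 0.83 against 0.39. TGACG, TGACGTCA, GCGGGGGCG and CACGTG each contain a CpG, and the shares over all windows were not matched for CpG content. These are matches of letters on both strands, not measured sites.

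In RNA, 4 of the 8 genes rose (Egr1, Nr4a1, Dusp1, Fosb), 1 fell (Fos) and 3 were not called (Ier2, Fosl1, Myc), by edgeR's quasi-likelihood test with Benjamini-Hochberg adjustment over all genes at 0.05. Of all genes tested 40.1% were called, 19.1% higher and 21% lower. The median change of the 8 genes was 0.26 on the log2 scale, against -0.01 over all genes. In 6 of the 8 the control and treated libraries did not overlap, as in 54.7% of all genes tested. Levels are in CPM and are not divided by transcript length, so they compare libraries and not genes. In bulk RNA, fewer cells of a type and less RNA per cell cannot be told apart.

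**Figure D1:**
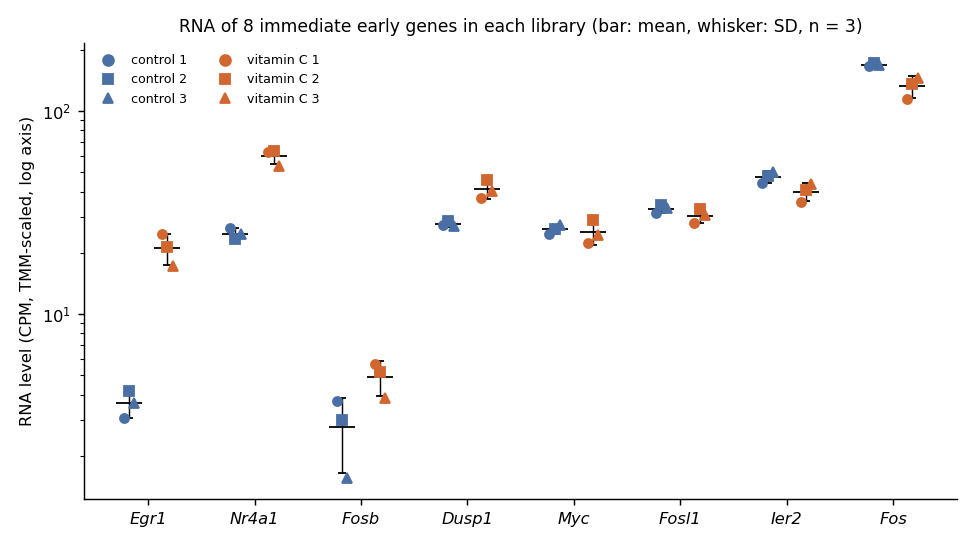
RNA level of each of the 8 genes in each library, in CPM on a log axis. Points are libraries (shape by replicate, colour by group), bars are means and whiskers SD (n = 3). The treated libraries of Egr1 (17.2 to 24.6 CPM) and Nr4a1 (53.6 to 63.2 CPM) lie far above their controls, while those of Fos (114 to 146 CPM) lie below.

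Egr1 encodes a zinc finger transcription factor and is a textbook target of SRF and the ternary complex factors. Its RNA level was 3.07, 4.16 and 3.64 CPM in control replicates 1 to 3 (84, 141 and 87 reads) and 24.6, 21.4 and 17.2 CPM with vitamin C (624, 593 and 490 reads). Every treated library was thus several times above the highest control, and vitamin C replicate 1 was the highest of all. The mean went from 3.63 ± 0.547 to 21.1 ± 3.69 CPM (SD, n = 3), a log2 change of 2.53 ± 0.16 (SE; edgeR adjusted p = 9.37e-06). Without vitamin C replicate 1 the log2 change was 2.40.

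Nr4a1 encodes an orphan nuclear receptor (Nur77) whose transcription follows both CREB and SRF signals. Its RNA level was 26.5, 23.3 and 24.7 CPM in controls and 62.9, 63.2 and 53.6 CPM with vitamin C. The groups lay far apart, with little spread inside either. The log2 change was 1.27 ± 0.08 (SE; edgeR adjusted p = 1.19e-05). Its relative Nr4a3 rose as well, from 15.2 ± 0.768 to 25.6 ± 4.96 CPM (0.75 ± 0.13 on the log2 scale; edgeR adjusted p = 0.00217), while Nr4a2 went from 5.59 ± 1.34 to 6.36 ± 0.635 CPM and was not called (edgeR adjusted p = 0.420). Both were named after their values were seen.

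The 3 Fos family members, which bind DNA as AP-1 with a Jun partner, did not share a direction. Fos, the founding member, was at 166, 171 and 167 CPM in controls and at 114, 136 and 146 CPM with vitamin C. All treated libraries were below all controls, and vitamin C replicate 1 was the lowest. The log2 change was -0.35 ± 0.09 (SE; edgeR adjusted p = 0.0122), and -0.26 without vitamin C replicate 1 (edgeR adjusted p = 0.00139; over all alternatives the adjusted p was 0.00139 to 0.0455).

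Fosb had few reads, with 102, 101 and 37 in the controls and 144, 143 and 109 with vitamin C. Its RNA level was 3.73, 2.98 and 1.55 CPM in controls and 5.67, 5.16 and 3.83 CPM with vitamin C. The lowest treated library lay just above the highest control. The log2 change of 0.81 ± 0.27 (SE) passed narrowly (edgeR adjusted p = 0.0452), and it no longer passed without control replicate 2 (edgeR adjusted p = 0.0947), control replicate 3 (0.0894) or vitamin C replicate 2 (0.0986), staying above 0.55 in each.

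Fosl1 (Fra-1) was at 31.5, 34.4 and 33.1 CPM in controls and at 28.1, 32.7 and 30.5 CPM with vitamin C. The groups overlapped and no change was called (-0.12 ± 0.07 on the log2 scale, 95% interval -0.26 to 0.03; edgeR adjusted p = 0.240).

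Dusp1 encodes a nuclear phosphatase that switches off MAP kinases. Its RNA level was 27.3, 28.6 and 27.0 CPM in controls and 37.3, 45.6 and 40.2 CPM with vitamin C. The controls were close to each other and all below the treated libraries. The log2 change was 0.57 ± 0.08 (SE; edgeR adjusted p = 0.000815).

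Ier2 encodes a small nuclear protein induced by growth factors. The authors' list gives the identifier behind this symbol the biotype pseudogene, so whether its reads belong to the gene or to a copy is uncertain. The list also places it on the minus strand, while the RefSeq window lies on the plus strand of GRCr8, so the window may not belong to this locus. It was at 43.9, 47.8 and 50.2 CPM in controls and at 35.7, 40.8 and 43.5 CPM with vitamin C. All treated libraries were below all controls, by little. The log2 change of -0.24 ± 0.09 (SE, 95% interval -0.41 to -0.07) missed the threshold (edgeR adjusted p = 0.0534), and it passed with library size scaling (0.0296), with the replicate number as a block (0.0130), without control replicate 1 (0.0467) and without vitamin C replicate 3 (0.0289).

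Myc encodes a transcription factor of growth and cell cycle genes. It was at 24.6, 26.2 and 27.3 CPM in controls and at 22.3, 29.0 and 24.4 CPM with vitamin C, so the groups overlapped, with the highest and the lowest library both treated. The log2 change was -0.04 ± 0.10 (SE, 95% interval -0.24 to 0.15; edgeR adjusted p = 0.753), and 0.037 without vitamin C replicate 1.

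Within groups the genes varied unequally. The coefficient of variation in controls ran from 1.53% for Fos and 2.97% for Dusp1 to 15.1% for Egr1 and 40.2% for Fosb, and with vitamin C from 7.54% for Fosl1 to 19.4% for Fosb. Vitamin C replicate 1 was the lowest treated library for 5 of the 8 genes and the highest for 2 (Egr1 and Fosb). The part of that library's difference in these values was not tested beyond the values given without it. Without it, Egr1, Nr4a1, Fosb, Dusp1 and Fos kept their calls.

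A longer list of immediate early genes, without the 10 above, was read in the same RNA fit. This list and those that follow were chosen with earlier results of these data known. Their counts are therefore a description and no test. Of 41 symbols listed, some being alternative names of the same gene, 31 could be tested. Of these 20 rose, 4 fell and 7 were not called, with a median log2 change of 0.31. Of all genes 40.1% were called, 19.1% higher and 21% lower, with a median of -0.01. The 8 of smallest adjusted p included the Fos family member Fosl2 (from 101 ± 4.05 to 252 ± 14.1 CPM). Also among them were the small Maf factor Maff (1.51 ± 0.09 on the log2 scale) and the kinase Sik1 (from 18.5 ± 0.590 to 39.6 ± 1.79 CPM). Cyr61 and Ctgf, secreted matricellular proteins that SRF and YAP are known to induce, rose by 2.11 ± 0.13 and 1.55 ± 0.09, and the Krüppel-like factor Klf2 by 1.64 ± 0.12. Egr2, the myelination factor and also one of the Schwann cell markers used above, went from 2.09 ± 0.375 to 6.76 ± 0.761 CPM (1.69 ± 0.16 on the log2 scale). Errfi1, a feedback inhibitor of EGF receptors, fell from 14.8 ± 0.836 to 7.48 ± 0.660 CPM. All 8 had an edgeR adjusted p of 9.34e-05 or less. Jun and Atf3, named after their values were seen, moved little: Jun from 1308 ± 41.1 to 1525 ± 132 CPM (edgeR adjusted p = 0.0377) and Atf3 from 1247 ± 10.2 to 1105 ± 57.4 CPM (0.0374).

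**Figure D2:**
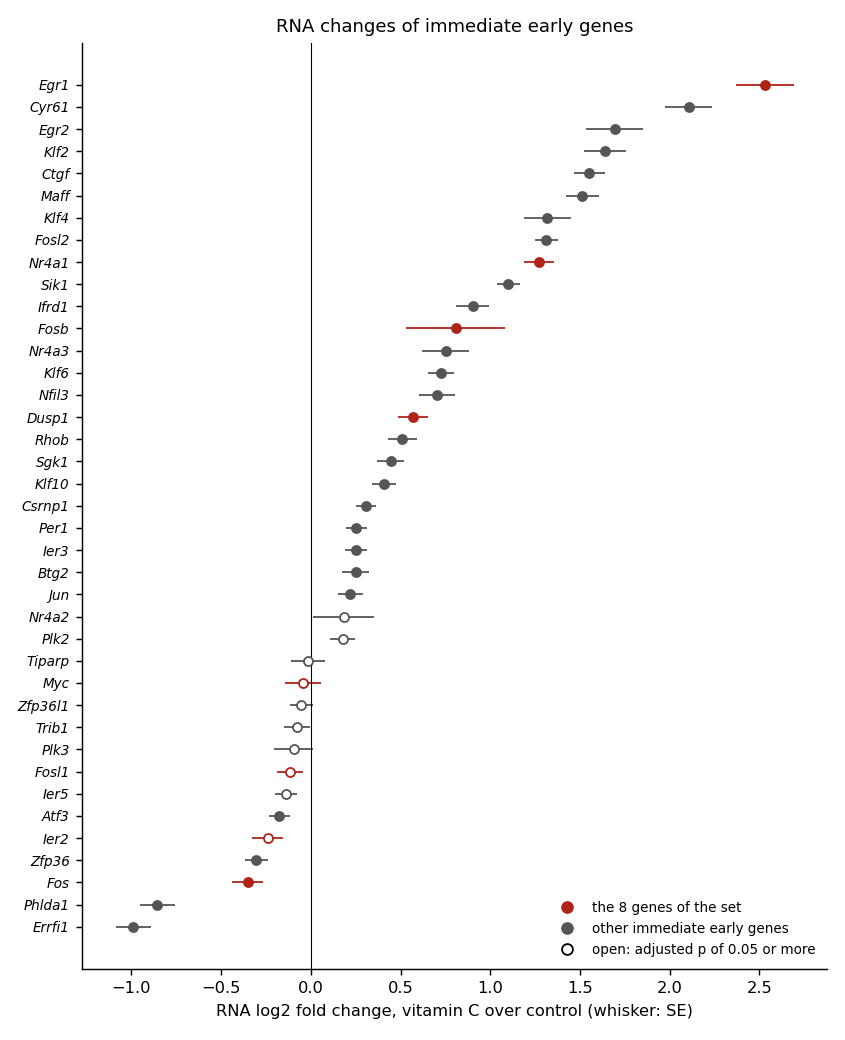
RNA log2 fold change, vitamin C over control, of the 8 genes (red) and the 31 tested genes of the longer list (grey). Points are estimates, whiskers SE, and open points have an edgeR adjusted p of 0.05 or more. Egr1 (2.53) is at the top, followed by Cyr61 (2.11), and Errfi1 (-0.99) is at the bottom.

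Regulators upstream of these genes were read in the same fit, against the same background of 19.1% of all genes higher and 21% lower. A list of SRF, its ternary complex and CREB partners and Mef2 factors held 16 tested genes. Of these 6 rose, 0 fell and 10 were not called (median 0.16). Among the 10 were Elk3 (-0.04 ± 0.06), Elk4 (0.03 ± 0.05), Creb1 (0.28 ± 0.14), Crem (-0.03 ± 0.09) and Mkl1 (0.33 ± 0.17). These were named after their values were seen. Srf itself went from 57.5 ± 0.0687 to 71.0 ± 2.13 CPM (0.30 ± 0.05 on the log2 scale; edgeR adjusted p = 0.00267), and Mef2d (0.49 ± 0.08), Mef2a (0.45 ± 0.10) and Atf1 (0.28 ± 0.06) rose too. In the ERK cascade 9 of 30 tested identifiers rose and 8 fell, with 13 not called (median 0.02). The receptor Pdgfrb (1.11 ± 0.06) and the phosphatase Ptpn11 (0.79 ± 0.05) rose, while the receptor Met (-1.71 ± 0.14) and the kinase Rps6ka1 (-0.58 ± 0.06) fell. Genes known as transcriptional targets of ERK, or as brakes of ERK or other MAP kinases, also went both ways. Of 14 tested, 3 rose, 6 fell and 5 were not called (median -0.13). Among them Etv4 fell from 2.13 ± 0.276 to 0.269 ± 0.0284 CPM, Etv5 from 27.7 ± 1.07 to 15.9 ± 0.501 CPM and Dusp4 from 64.9 ± 2.12 to 40.0 ± 3.41 CPM, while Dusp8 rose from 2.45 ± 0.123 to 5.15 ± 0.108 CPM. Around Myc, its partner Max (0.22 ± 0.07) and its relative Mycn (0.82 ± 0.12) rose, Mycl fell (-0.32 ± 0.06) and 6 of 9 tested genes were not called.

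Some markers of other cell types changed too, in both directions, and their part in the result was not tested. The summed level of 8 pericyte and smooth muscle markers was 78.3 to 81.3 CPM in controls and 194 to 221 CPM with vitamin C, carried by Tagln, Pdgfrb and Des, with 3 of 4 tested markers higher. The defining marker Rgs5 had at most 1 read in any library, Cnn1 at most 3, Notch3 at most 9 and Acta2 at most 10. Of 7 fibroblast markers the sum was 4516 to 4709 CPM in controls and 9276 to 10787 CPM with vitamin C, nearly all of it Col1a1. The other 3 tested ones (Gsn, Pdgfra, Pi16) fell, Dcn and Dpt had 0 reads in every library and Thy1 at most 1. Sums of 5 macrophage markers (1.42 to 1.97 CPM in controls and 1.497 to 2.004 CPM with vitamin C) and of 4 endothelial markers (1.38 to 1.83 CPM and 3.09 to 4.29 CPM, with Cdh5 at 0 throughout and Tek called higher) were low. Of 6 neuronal markers the sum was 906 to 972 CPM in controls and 782 to 880 CPM with vitamin C, mostly Gap43.

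The 16 hMeDIP peaks of the 8 genes lay in and around the transcripts, and none covered the listed transcript start. Of the 16, 8 lay inside the transcript, 3 ran across its end, 4 lay upstream and 1 (Myc) began past its end. Of all gene peaks centred within 10 kb of a start, 64.0% lay inside, 2.29% ran across the end, 24.0% lay upstream, 2.64% lay past the end and 7.08% covered the start. A peak is named below by the distance of its centre from the listed transcript start in the direction of the gene. Positions are those of the authors' list. Its genome build is not stated in the sources at hand, so no peak sequence was read and the RefSeq windows above cannot be laid over the peaks.

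With vitamin C the hMeDIP level rose in 11 of the 16 peaks, fell in 4 and was not called in 1, by edgeR's quasi-likelihood test with Benjamini-Hochberg adjustment over all peaks. That count stands against a background of 73.2% of all peaks called, 36.9% higher and 36.3% lower. All 16 were centred within 10 kb of a start, and of gene peaks so placed 44.1% were higher and 28.9% lower. The groups did not overlap in 15 of the 16 peaks, as in 76.9% of all peaks. The median log2 change of the 16 was 0.49, against 0.05 over all peaks and 0.17 over gene peaks within 10 kb of a start. Scaling by all counted reads in place of TMM, which centres the peaks, moved the median of all peaks to 0.49 and that of the 16 to 0.93. It then called 12 of the 16 higher and 2 lower, with 83.8% of all peaks called, 60.1% higher and 23.6% lower. For gene peaks within 10 kb of a start the median was then 0.61, with 67.7% higher and 17.1% lower. DESeq2 called 43730 of all peaks higher and 68751 lower, and 11 and 3 of the 16.

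**Figure D3:**
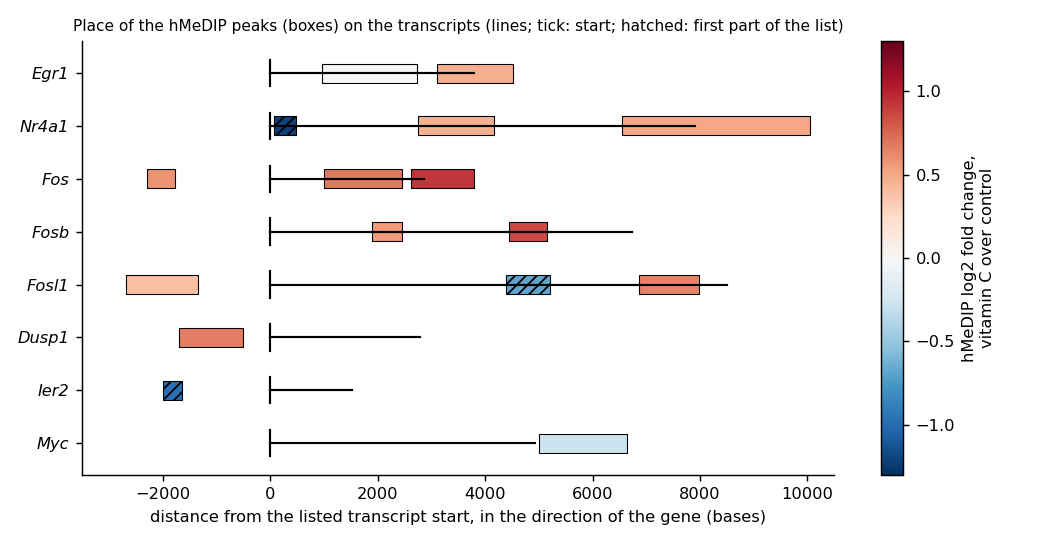
Place of the 16 peaks (boxes) on the 8 transcripts (lines, with a tick at the listed start), in bases from the start in the direction of the gene. Colour gives the hMeDIP log2 change, and hatching marks the 3 peaks in the first 68431 entries of the list, which are the 3 lowest (-0.68, -0.98 and -1.21).

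Direction differed along the deposited list. Its first 68431 entries were 87.1% lower and 2.89% higher, and the other 147520 were 52.6% higher and 12.8% lower. This break was placed from the signs of change themselves after the data were seen, and no source used here says how the list was assembled. The peaks of Ier2 at -1814, of Fosl1 at +4799 and of Nr4a1 at +285 stood in the first part and all 3 fell. The other 13 stood in the second, where 11 rose, 1 fell (Myc) and 1 was not called (Egr1 at +1847). Their median change was 0.55, against 0.30 for the whole second part and 0.34 for its gene peaks within 10 kb of a start.

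Egr1 had a peak inside the gene and one across its end. The first (chromosome 18, 27658590 to 27660360, centre at +1847) was at 7.07, 6.80 and 6.05 CPM of reads in peaks in control replicates 1 to 3 and at 6.23, 7.04 and 6.26 CPM with vitamin C. Here the groups overlapped, and the log2 change was 0.00 ± 0.09 (SE; edgeR adjusted p = 0.996). With all counted reads as scale it was 0.45 (edgeR adjusted p = 0.00145). The peak across the end (27660733 to 27662150, centre at +3813) was at 4.29, 4.46 and 4.46 CPM in controls and at 5.79, 6.04 and 6.33 CPM with vitamin C. All treated libraries were higher, with a log2 change of 0.47 ± 0.10 (edgeR adjusted p = 5.82e-05).

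Nr4a1 held peaks of opposite direction within one gene on chromosome 7. The peak at its 5′ end (142912397 to 142912805, centre at +285) fell from 2.71, 3.03 and 2.45 CPM in controls to 0.974, 1.19 and 1.29 CPM with vitamin C. The groups were far apart, and the log2 change of -1.21 ± 0.17 (edgeR adjusted p = 2.76e-08) was the lowest of the 16. The peak inside the gene (142915065 to 142916481, centre at +3457) was at 5.49, 4.72 and 5.05 CPM in controls and at 7.26, 6.44 and 7.18 CPM with vitamin C (0.46 ± 0.10). The wide peak across the 3′ end (142918869 to 142922368, centre at +8302) was at 10.6, 8.88 and 9.11 CPM in controls and at 13.3, 13.2 and 13.5 CPM with vitamin C (0.50 ± 0.07; edgeR adjusted p = 5.04e-08). In both, all treated libraries were above all controls. The 5′ peak fell and the others rose with every scaling tried.

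Fos, whose RNA fell, had 3 peaks on chromosome 6 that all rose. The peak upstream (109298138 to 109298669, centre at -2030) was at 2.26, 2.55 and 2.81 CPM in controls and at 4.12, 3.58 and 3.77 CPM with vitamin C (0.58 ± 0.13; edgeR adjusted p = 0.000114). The peak inside the gene (109301429 to 109302878, centre at +1720) was at 4.62, 4.16 and 4.37 CPM in controls and at 6.81, 7.21 and 6.96 CPM with vitamin C (0.69 ± 0.10). The peak across the 3′ end (109303054 to 109304228, centre at +3208) was at 3.20, 3.29 and 3.33 CPM in controls and at 6.09, 5.99 and 6.45 CPM with vitamin C. In each of the 3 every treated library exceeded every control, and the last had the highest change of the 16 peaks, 0.92 ± 0.11 on the log2 scale (edgeR adjusted p = 5.19e-10).

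Fosb had 2 peaks inside the gene on chromosome 1, and both rose. The one nearer the start (80218963 to 80219522, centre at +2175) was at 4.93, 4.81 and 4.77 CPM in controls and at 7.45, 6.92 and 6.82 CPM with vitamin C (0.55 ± 0.10; edgeR adjusted p = 1.60e-06). The one nearer the end (80216258 to 80216975, centre at +4801) was at 1.84, 2.12 and 1.80 CPM in controls and at 3.25, 3.83 and 3.14 CPM with vitamin C (0.86 ± 0.15; edgeR adjusted p = 1.47e-06). Neither showed any overlap of the groups.

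Fosl1, further along chromosome 1, had peaks of both directions. The peak upstream (220823885 to 220825209, centre at -2013) was at 8.53, 8.96 and 9.39 CPM in controls and at 11.8, 11.8 and 11.5 CPM with vitamin C (0.39 ± 0.07; edgeR adjusted p = 6.02e-06). The middle peak (220830946 to 220831773, centre at +4799) fell from 4.96, 5.07 and 4.74 CPM to 2.86, 3.23 and 2.97 CPM (-0.68 ± 0.12; edgeR adjusted p = 1.55e-06), and with all counted reads as scale its change was -0.25 and not called (edgeR adjusted p = 0.0937). The peak near the end (220833424 to 220834534, centre at +7419) was at 3.05, 2.55 and 2.66 CPM in controls and at 4.14, 4.48 and 4.14 CPM with vitamin C (0.65 ± 0.13; edgeR adjusted p = 1.23e-05). The groups were apart in all 3 peaks.

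Dusp1, Ier2 and Myc had 1 peak each. The Dusp1 peak lay upstream (chromosome 10, 16968928 to 16970114, centre at -1105), at 5.30, 4.59 and 6.05 CPM in controls and 8.68, 8.63 and 8.06 CPM with vitamin C. It rose by 0.67 ± 0.09 on the log2 scale (edgeR adjusted p = 2.31e-08), with all treated libraries above all controls. By the strand the list gives, the Ier2 peak lay upstream too (chromosome 19, 25777297 to 25777649, centre at -1814) and went the other way, from 3.16, 3.42 and 3.12 CPM to 1.75, 1.34 and 1.80 CPM (-0.98 ± 0.15; edgeR adjusted p = 2.83e-07). The Myc peak, past the 3′ end (chromosome 7, 102591310 to 102592955, centre at +5819), was at 6.77, 7.10 and 6.76 CPM in controls and at 6.12, 5.05 and 5.77 CPM with vitamin C. It fell by 0.28 on the log2 scale (SE 0.10; edgeR adjusted p = 0.00749), a call lost without vitamin C replicate 2 (-0.19; adjusted p = 0.153) and under DESeq2 (-0.34; adjusted p = 0.0632), and with all counted reads as scale the change was 0.14 and not called (edgeR adjusted p = 0.339).

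**Figure D4:**
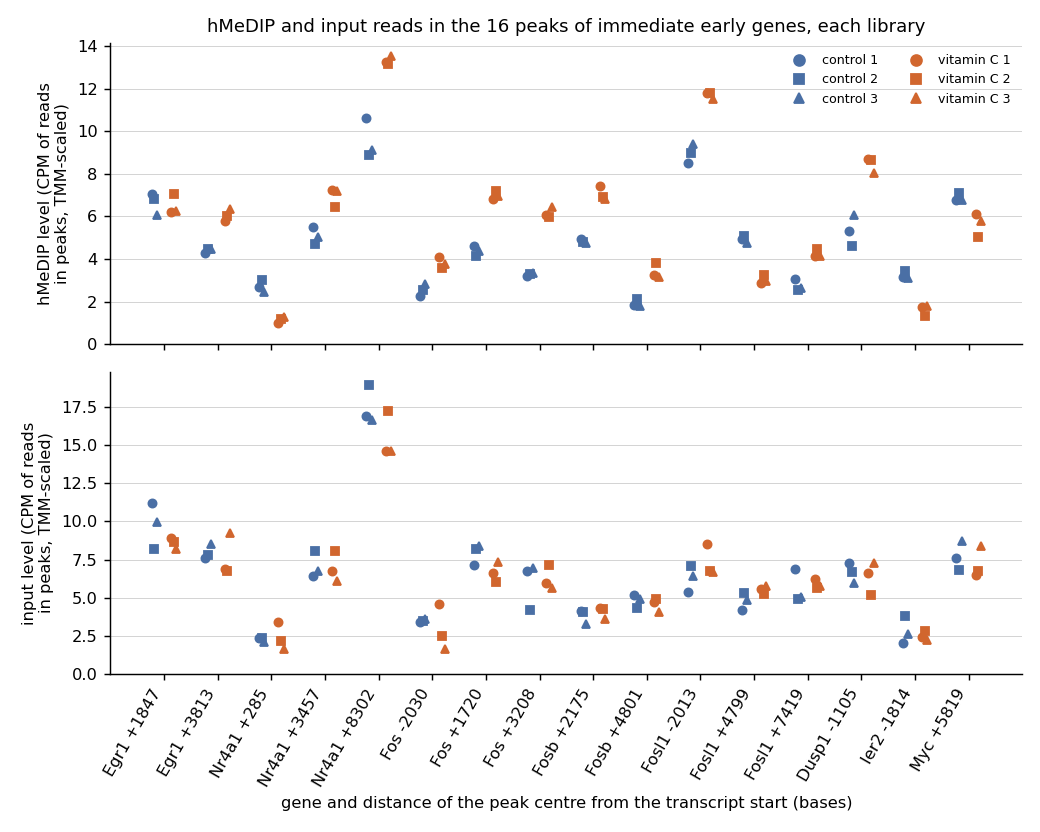
Levels of the 16 peaks in each hMeDIP library (top) and input library (bottom), in CPM of reads in peaks, with one point per library. In hMeDIP the groups are apart at every peak but Egr1 +1847, and in input they overlap at all 16.

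In input DNA the same peaks did not separate the groups. None of the 16 was called (edgeR), as none of the 215759 input peaks tested was, 0% of them, with 10477 of all input peaks at an unadjusted p under 0.05. The groups overlapped in all 16, against 9.97% of all peaks in which they did not. In controls the hMeDIP level of the 16 peaks was a median of 2.71 times that of input per counted read (1.49 to 5.32), below the 3.58 over all peaks, and with vitamin C it was 4.18, against 4.42. Enrichment was thus highest in controls at the upstream peak of Fosl1 (5.32) and lowest at the distal peak of Fosb (1.49).

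A change of hMeDIP relative to input was tested in one fit over both kinds of library. Of the 16 peaks 9 rose over input, 3 fell and 4 were not called, against 49.1% of all peaks called, 20.8% higher and 28.3% lower. The 3 that fell were those of Nr4a1 at +285 (-1.25 ± 0.32), Fosl1 at +4799 (-0.90 ± 0.21) and Ier2 at -1814 (-0.84 ± 0.30; edgeR adjusted p = 0.0131). The Ier2 call was lost without control replicate 1 (adjusted p = 0.0840) or vitamin C replicate 2 (0.166), and that of Nr4a1 without vitamin C replicate 1 (0.0504). All 3 Fos peaks rose over input, by 0.87 ± 0.20 to 0.93 ± 0.18, and so did the distal Fosb peak (0.93 ± 0.24), the Dusp1 peak (0.72 ± 0.18) and the 3′ peak of Nr4a1 (0.65 ± 0.12). The Egr1 peak at +3813 (0.53 ± 0.18; edgeR adjusted p = 0.00786), the Fosl1 peak at +7419 (0.58 ± 0.21; 0.0160) and the Nr4a1 peak at +3457 (0.45 ± 0.18; 0.0294) also rose. The Egr1 call was lost without vitamin C replicate 2 (adjusted p = 0.0668), the Fosl1 call without control replicate 1 (0.0983) or vitamin C replicate 2 (0.0814), and the Nr4a1 call without control replicate 2 (0.0871), vitamin C replicate 1 (0.0817) or vitamin C replicate 3 (0.0614). Not called were Egr1 at +1847, Fosb at +2175 (0.45 ± 0.23; edgeR adjusted p = 0.0917), Fosl1 at -2013 and Myc.

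Summed over the peaks of a gene, hMeDIP rose in 6 of the 8 genes and fell in 2, against 74.8% of 16140 genes called, 37.4% higher and 37.5% lower. With all counted reads as scale 6 rose and 1 fell, against 82.3% of all genes called, 65.3% higher and 17% lower. Fos rose most, from 18.6 ± 0.612 to 32.1 ± 0.709 CPM (SD, n = 2; 0.77 ± 0.07 on the log2 scale; edgeR adjusted p = 8.00e-13), and Dusp1 (0.70 ± 0.10) and Fosb (0.67 ± 0.09) were next. The sums of Nr4a1 (0.34 ± 0.06), Egr1 (0.23 ± 0.07; edgeR adjusted p = 0.00387) and Fosl1 (0.23 ± 0.06) rose less. The sum of Ier2 fell by 0.96 and that of Myc by 0.26 (edgeR adjusted p = 0.0195). DESeq2 called neither Egr1 (adjusted p = 0.0907) nor Myc (0.121), and without vitamin C replicate 2 edgeR called neither (0.0558 and 0.255).

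**Figure D5:**
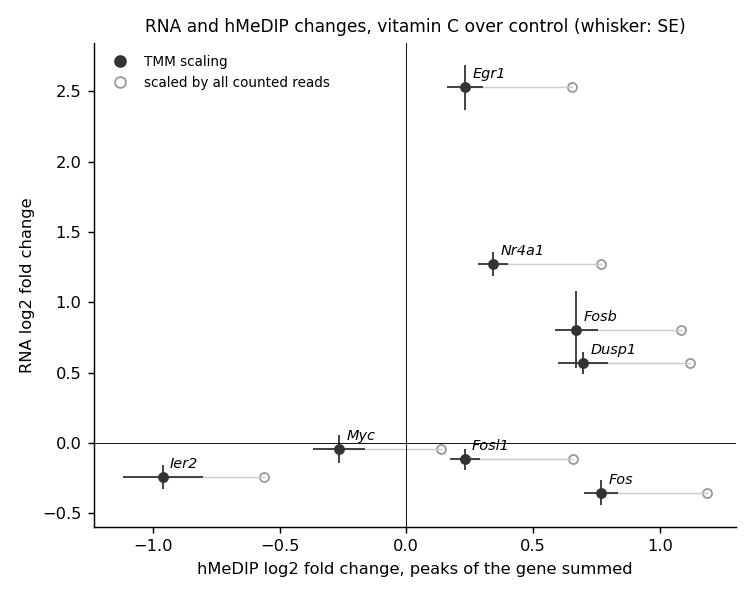
RNA log2 change against the hMeDIP log2 change of the summed peaks for the 8 genes, vitamin C over control, with whiskers of 1 SE. Filled points use TMM scaling and open points all counted reads. Egr1 has the highest RNA change (2.53) at a small hMeDIP change (0.23), and Fos the highest hMeDIP change (0.77) at an RNA change of -0.35.

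Set side by side, the size of the RNA change and that of the hMeDIP change did not order the genes alike. Egr1 and Nr4a1, first and second in RNA, had summed hMeDIP changes of 0.23 and 0.34. Fos, with the highest rise in hMeDIP, was the gene whose RNA was called lower. With TMM scaling, Dusp1 and Fosb rose in both by similar amounts, 0.57 and 0.70 for Dusp1 and 0.81 and 0.67 for Fosb, in RNA and hMeDIP. With all counted reads as scale their hMeDIP changes were 1.12 and 1.09. Fosl1 rose in hMeDIP with no call in RNA. Ier2 and Myc fell in hMeDIP (-0.96 and -0.26) with no call in RNA, where their estimates were also below 0 (-0.24 and -0.04). With all counted reads as scale the hMeDIP change of Myc was 0.14 and not called. With 8 genes this is a description without a test.

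As a measure free of TMM scaling, the share of all counted hMeDIP reads that fell in the 16 peaks was 0.00243%, 0.00227% and 0.00271% in control replicates 1 to 3 and 0.00412%, 0.00430% and 0.00403% with vitamin C. Every treated library was above every control. The mean went from 0.00242 ± 0.000216% to 0.00419 ± 0.000160% (SD, n = 2), a ratio of 1.73, with an exact two-sided permutation p of 0.333, the smallest that 2 against 2 allows (0.1 with all 3 against 3). The share of counted hMeDIP reads in any peak was itself 30.8% to 35.7% in controls and 40.8% to 43.9% with vitamin C. As a share of reads in peaks the ratio for the 16 was 1.31. In input the share was 0.000894% and 0.000856%, a ratio of 0.957.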

How the data were processed

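RNA, hMeDIP and input libraries of 3 control and 3 vitamin C samples of rat Schwann cells were analysed from whole-number counts per gene or peak that the authors deposited. The deposited per-sample files (18 of 18) were identical to the tables of the series. Tools named, without a role, in the submitters' processing notes are HTSeq, BWA, STAR, Trim Galore and CASAVA 1.4. Not given in the sources used here are the genome build, annotation release, peak caller, strand setting and the rule that merged peaks, so overlapping or antisense genes and near-identical copies cannot be told apart. Distances to starts and transcript ends come from the positions in the deposited peak list. Gene symbols come from that list and promoter windows from RefSeq (GRCr8, matched by symbol, 7 of 10).

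Entries that name no gene or peak (42.3% to 53.9% of counted reads in RNA, 56.1% to 69.2% in hMeDIP and 91.3% to 91.6% in input) entered neither library sizes nor tests. The tests used edgeR 4.0.16 under R 4.3.3 (glmQLFit and glmQLFTest, TMM, filterByExpr, Benjamini-Hochberg adjustment at 0.05 over all features), with treatment as the only term. Change over input was the treatment-by-assay term in a fit with a term per sample. The labels mention no molecular identifiers, so a read may not be an independent molecule. Levels are TMM-scaled CPM. Python 3.11.15 with pandas 2.3.3 searched motifs, and matplotlib 3.10.9 drew the figures. The scripts were tested on simulated data.

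The hMeDIP replicates 1 and 3 were summed in both groups. The bound laid down for this (a chi-square per degree of freedom of at most 1.1 while other pairs of the group exceed it) was met only by the control pair. The treated pair (0.896, against 1.09 and 1.08 for the others) was summed too, a choice made after these values were seen, and fits with the control pair only and with every library apart are alternatives. Further alternatives were other scalings, DESeq2 1.42.0, a block for the replicate number, other filters and leaving out each replicate. Replicate numbers are not said to pair samples, and correlations of same-numbered deviations were 0.0458 to 0.276 in RNA and -0.204 to -0.0282 in hMeDIP, so the block was not used in the main fits.

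The genes and lists were chosen with earlier results of these data known. Named were all 10 genes and every peak, and from each further list the 4 genes of smallest adjusted p past the threshold (8 for other immediate early genes), of which some are given as values only. Exceptions are said to be so.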

Additional observations from a re-analysis of the deposited data

How the results depend on the processing

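Of the RNA calls of the 8 genes, those of Egr1, Nr4a1, Dusp1 and Fos were kept under all 11 alternatives, Fosb lost its call in 3 and Ier2 gained one in 4. Myc in RNA, at -0.04, was at 0.037 without vitamin C replicate 1 and ranged from -0.16 to 0.037 over single replicates left out. The Egr1 peak at +1847, at 0.00, was at -0.034 with DESeq2 size factors, -0.029 with DESeq2, -0.00281 with the replicate block, -0.017 with every library apart, -0.024 with only the control pair summed (an alternative chosen after seeing the data), -0.00367 without control replicate 2, -0.066 without control replicate 3 and -0.062 without vitamin C replicate 2, with a range of -0.066 to 0.067 over single replicates left out. With all counted reads as scale the Myc peak and the Myc sum were both at 0.14. Over input, Myc was at 0.028 without vitamin C replicate 3 and ranged from -0.30 to 0.028. In input, the Nr4a1 peak at +3457 was at 0.00124 with library size scaling. The cause was not tested. The difference in the share of reads in the 16 peaks was 0.00177 percentage points of all counted reads and 0.00236 of reads in peaks. These differences have unlike denominators, and the ratio of treated to control was smaller for reads in peaks, 1.31 against 1.73.

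Leaving out single replicates gave 4 to 6 RNA calls among the 8 genes and 3494 to 5634 in all, 14 to 15 calls among the 16 hMeDIP peaks and 142838 to 154734 in all, 6 to 8 among the summed genes and 10809 to 12047 in all, and 9 to 12 over input and 87983 to 101061 in all. The replicate block gave 5544 RNA calls in place of 5188 and 151098 hMeDIP peak calls in place of 158065, and among the genes and peaks here it changed no call but that of Ier2 in RNA. Of the RNA libraries, same-numbered samples did not all correlate best with their own number.

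Depth limits the low values. Fosb had as few as 37 RNA reads in a library and the Nr4a1 peak at +285 as few as 35 hMeDIP and 14 input reads.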

Other observations

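Heat shock genes, which many stresses switch on together with immediate early genes, went in both directions in the same RNA libraries. Of 9 tested, 2 rose and 5 fell, with a median log2 change of -0.16, where 19.1% of all genes rose and 21% fell, with a median of -0.01. The small heat shock proteins rose: Hspb8 from 9.54 ± 0.686 to 30.2 ± 2.26 CPM and Hspb1 from 2.75 ± 0.481 to 7.16 ± 0.710 CPM (SD, n = 3; edgeR adjusted p = 4.50e-06 and 0.000192). Bag3, a co-chaperone that works with Hspb8, fell from 97.9 ± 6.19 to 43.5 ± 2.03 CPM, and the mitochondrial chaperonin Hspd1 from 206 ± 9.04 to 153 ± 4.24 CPM (edgeR adjusted p = 6.94e-06 and 0.000519). Hsf1, the heat shock transcription factor, was at 30.9 ± 0.527 and 34.5 ± 0.537 CPM and was not called (edgeR adjusted p = 0.0527); it was named after its values were seen.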
